A study of Danio rerio with 4 samples.

Results

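The genes described here are 10 genes of muscle calcium buffering, energy supply and calcium release in zebrafish embryos, namely the parvalbumins *pvalb1*, *pvalb2*, *pvalb3* and *pvalb4*, the muscle creatine kinases *ckma* and *ckmb*, and the sarcoplasmic reticulum genes *atp2a1*, *ryr1b*, *ryr3* and *casq1a*. They were chosen by their symbols, and each symbol named 1 of the 31388 genes in the table. RNA was taken from whole embryos at 2 dpf, and 2 libraries of control embryos were compared with 2 of MZ*tulp3* embryos. The control embryos carry the genotype label WT. MZ*tulp3* embryos are maternal-zygotic mutants, in which both the mother's store in the egg and the embryo's own copies of *tulp3* are affected, and the study's *tulp3* knockout line (uf3, made with CRISPR/Cas9) is kept in an AB/TL background with the li1Tg transgene. The methods describe the mutant embryos taken for sequencing as those with severe ventral body curvature, so that genotype and selection by body shape cannot be told apart. The number of embryos behind each library and the strain of the embryos sequenced, control or mutant, were not given in the sources used here. No treatment is named for either group.

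Skeletal muscle contracts when calcium leaves the sarcoplasmic reticulum through ryanodine receptors, and it relaxes when the calcium is pumped back by the SERCA pump that *atp2a1* encodes. Parvalbumins are small EF-hand proteins that bind calcium in the cytosol and speed relaxation, and fast fish muscle is known for holding them in large amounts. Calsequestrin, the product of *casq1a*, stores calcium inside the reticulum. Muscle creatine kinase regenerates ATP from phosphocreatine beside the contractile filaments. At 2 dpf the trunk muscle of zebrafish already contracts, and fast fibres make up most of it.

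Between 22589725 and 29735214 reads per library fell on genes, and 13 mitochondrial genes took 40.95% to 71.1% of them, which left 8607137 to 14520032 reads on nuclear genes. The targeted gene *tulp3* had 36 reads in control replicate 2 and 0 in the other 3 libraries, so it cannot check the labels. The values below are normalized counts, which are reads divided by 1 size factor per library. MZ*tulp3* replicate 2 had the highest mitochondrial share and the fewest nuclear reads, and control replicate 2 had the lowest share and the most nuclear reads. Differences are given as log2 fold changes of MZ*tulp3* against control on the scale log2(normalized count + 2), tested with limma, with p-values adjusted by the Benjamini-Hochberg procedure over 14674 genes. In RNA of whole embryos, fewer muscle cells and less RNA per muscle cell cannot be told apart. The labels call the replicates biological, and with 2 per group the spread between them is known poorly.

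All 10 genes passed the filter on low values, which asked for at least 10 normalized counts in at least 2 libraries. No gene of the 10 passed the threshold of 0.05 on the adjusted p in limma, where the share called among all genes tested was 0.0%. Of the 10, *pvalb1* and *ryr3* had an unadjusted p under 0.05, against 12.8% of all genes tested. edgeR and DESeq2 on the recovered reads called 0 of the 10, with 2 and 3 at an unadjusted p under 0.05 (9.72% and 11.4% of all genes in the same fits). Over all the genes it tested, DESeq2 called 2.56%. The fold change was positive for 8 genes and negative for *ryr1b* and *ryr3*, with a median of 0.50 on the log2 scale, beside -0.09 over all genes tested. Both MZ*tulp3* libraries lay above both control libraries for 3 of the 10 genes (20.0% of all genes tested) and below them for 2 (23.3%), so that the groups did not overlap for 5 of the 10 genes, against 43.3% of all genes tested.

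**Figure D1:**
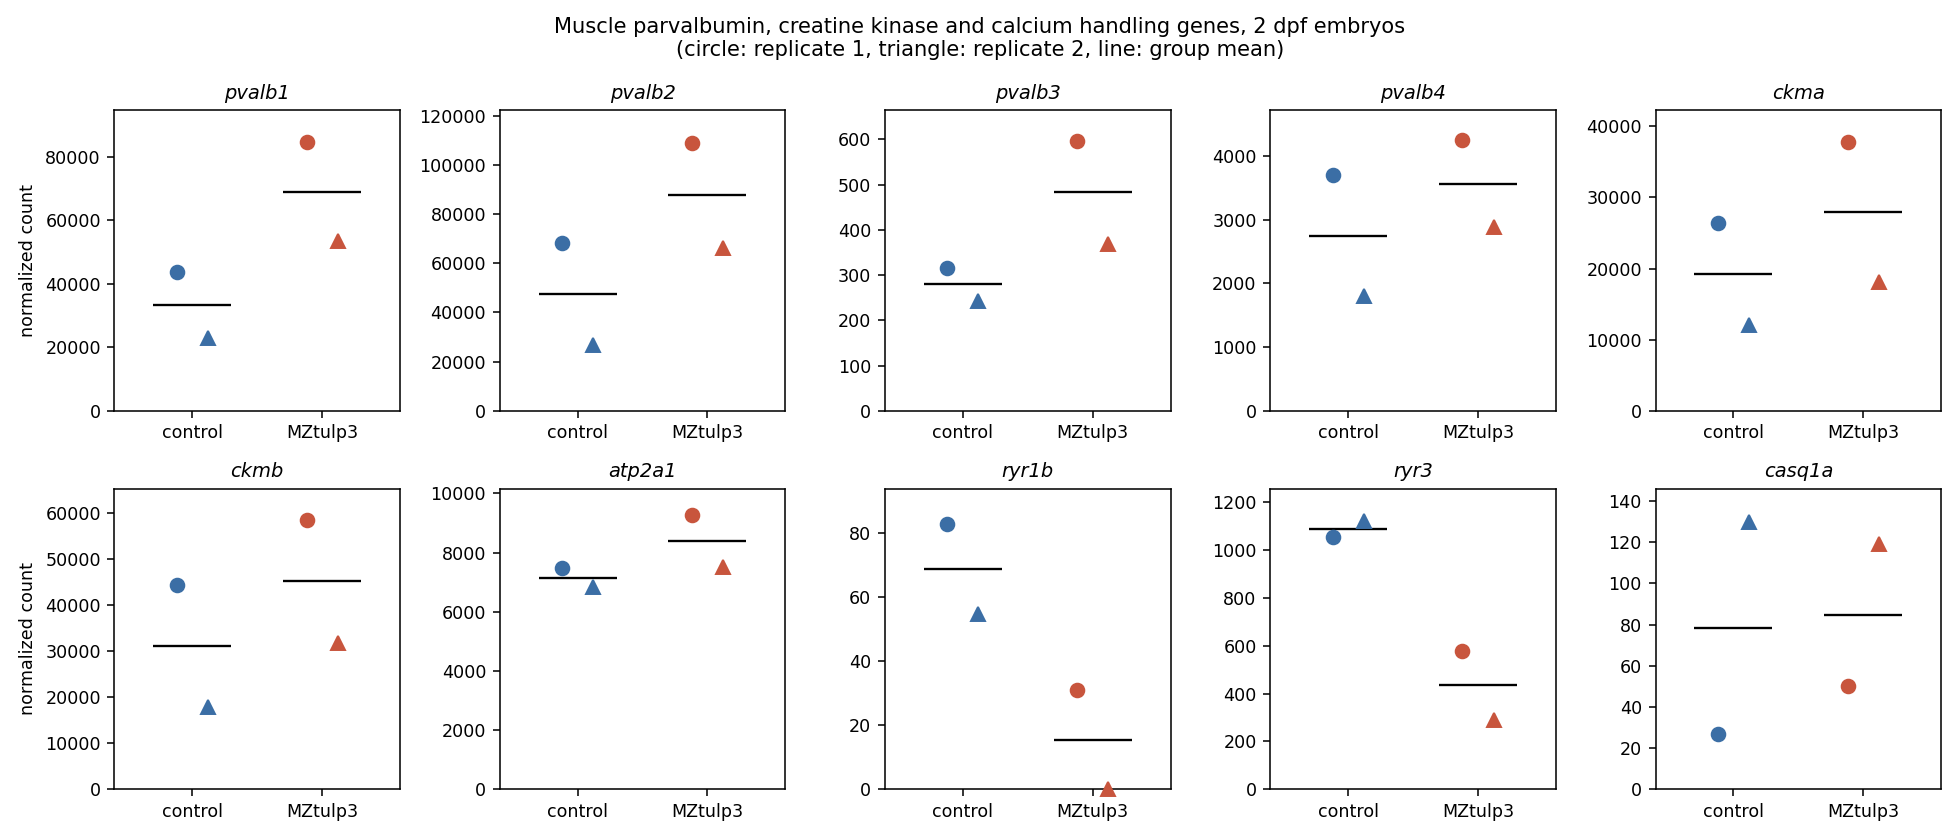
Normalized counts of the 10 genes, with 1 panel per gene and its own linear axis from 0. Circles are replicate 1, triangles replicate 2 and horizontal bars the mean of a group. The control libraries are ordered replicate 1 above replicate 2 in all genes but *ryr3* and *casq1a*, and the 2 ryanodine receptors are the genes whose MZ*tulp3* points both lie below control.

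All 4 parvalbumins of the set had a higher mean in MZ*tulp3* embryos, with a median log2 fold change of 0.87, and the groups overlapped for *pvalb2* and *pvalb4*. *pvalb1* (ENSDARG00000037789) had 43619 and 22939 normalized counts in the control libraries and 84609.9 and 53414 in the MZ*tulp3* libraries. Both mutant libraries lay above both controls, with a mean of 33279 ± 14623 (SD, n = 2) in control and 69012 ± 22058 (SD, n = 2) in MZ*tulp3*. The log2 fold change was 1.09 (SE 0.43, 95% interval 0.07 to 2.11), and the adjusted p was 0.381 with limma, 0.0724 with DESeq2 and 0.502 with edgeR. The fold change ranged from 0.62 without control replicate 2 to 1.55 without control replicate 1, so the size rested on which control library was kept.

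*pvalb2* (ENSDARG00000002768), the parvalbumin with the most reads of the family, had 68333 and 26708 normalized counts in control embryos, against 109024 and 66159 in MZ*tulp3* embryos. Control replicate 1 lay above MZ*tulp3* replicate 2, so the groups overlapped. The log2 fold change was 0.99 (SE 0.52, 95% interval -0.25 to 2.23) with a limma adjusted p of 0.483, and it was 0.31 without control replicate 2. *pvalb3* (ENSDARG00000022817) was counted far less, with 317 and 242 normalized counts in the control libraries and 598 and 369 in MZ*tulp3*. Its groups did not overlap, and its log2 fold change was 0.76 (SE 0.48, 95% interval -0.37 to 1.88, limma adjusted p = 0.553). *pvalb4* (ENSDARG00000024433) had 3698 and 1804 normalized counts among controls, compared with 4246 and 2886 in MZ*tulp3*. Its groups overlapped, its log2 fold change was 0.44 (SE 0.40, 95% interval -0.50 to 1.38, limma adjusted p = 0.686), and without control replicate 2 its sign turned to -0.079.

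The muscle creatine kinases differed less between the groups than between the libraries of a group. *ckma* (ENSDARG00000035327) had 26389 and 12029 normalized counts in the controls and 37843 and 18064 in the MZ*tulp3* libraries. *ckmb* (ENSDARG00000040565) had 44467 and 17917 in control embryos, against 58492 and 31881 in MZ*tulp3* embryos. For both genes control replicate 1 lay between the mutant libraries. The log2 fold change was 0.55 (SE 0.49, 95% interval -0.61 to 1.72, limma adjusted p = 0.678) for *ckma* and 0.61 (SE 0.51, 95% interval -0.59 to 1.82, limma adjusted p = 0.654) for *ckmb*. Without control replicate 2 they were -0.013 and -0.042. The products of these genes are closely similar, and reads that fit both were split by the authors' estimate, so that the division of reads between *ckma* and *ckmb* is uncertain. The ratio of their reads, *ckma* over *ckmb*, was 0.593 and 0.671 in the control libraries and 0.647 and 0.567 in MZ*tulp3*, so that their balance overlapped between the groups.

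The sarcoplasmic reticulum genes did not share a direction, with *atp2a1* and *casq1a* at positive and the ryanodine receptors at negative fold changes. *atp2a1* (ENSDARG00000020574), the calcium pump of fast muscle, had 7472 and 6831 normalized counts among controls, compared with 9284 and 7527 in MZ*tulp3*. The mutant libraries lay above the controls by a narrow margin. The log2 fold change was 0.23 (SE 0.25, 95% interval -0.37 to 0.82, limma adjusted p = 0.753), and it was 0.0080 when libraries were scaled to their nuclear reads, a scaling that shifted the median of all genes by -0.21. *casq1a* (ENSDARG00000038716) had 27.0 and 130 normalized counts in the controls and 50.4 and 119 in the MZ*tulp3* libraries. The libraries of each group differed more than the groups did, and the log2 fold change of 0.37 (SE 1.29, 95% interval -2.68 to 3.41, limma adjusted p = 0.945) took values from -0.73 without control replicate 1 to 1.46 without control replicate 2.

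*ryr3* (ENSDARG00000071331), the ryanodine receptor with the most reads of the 2 among the 10 genes, had 1054 and 1123 normalized counts in control embryos, against 581 and 289 in MZ*tulp3* embryos. Its control libraries were close to each other, at a mean of 1089 ± 48.7 (SD, n = 2), and both mutant libraries lay below them, at a mean of 435 ± 206 (SD, n = 2). The log2 fold change was -1.40 (SE 0.43, 95% interval -2.42 to -0.39). The adjusted p was 0.379 with limma, 0.189 with DESeq2 and 0.502 with edgeR. Leaving out 1 library at a time gave fold changes from -1.90 without MZ*tulp3* replicate 1 to -0.90 without MZ*tulp3* replicate 2. In fish, this gene is known as a ryanodine receptor of skeletal muscle that lies beside the junctional release channels.

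*ryr1b* (ENSDARG00000023797), a release channel of fast muscle in zebrafish, was counted with 86 and 83 reads in control and with 27 and 0 reads in MZ*tulp3*. These reads correspond to 82.8 and 54.8 normalized counts in control and to 30.9 and 0 in MZ*tulp3*. Both mutant libraries lay below both controls, and in MZ*tulp3* replicate 2 a count of 0 allows up to 3 reads, or 3.54 normalized counts, for counting error only. The fitted log2 fold change of -3.10 (SE 1.93, 95% interval -7.67 to 1.48, limma adjusted p = 0.552) depended on the pseudocount, with -4.10 at 0.5 and -1.94 at 10, and on that library, with -1.08 without MZ*tulp3* replicate 2. Its paralog *ryr1a*, the channel of slow muscle in zebrafish, had 78.0 and 14.5 normalized counts in the control libraries and 115 and 1.18 in MZ*tulp3*. The values of *ryr1a* spanned each other in both groups, so no direction could be read from them.

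**Figure D2:**
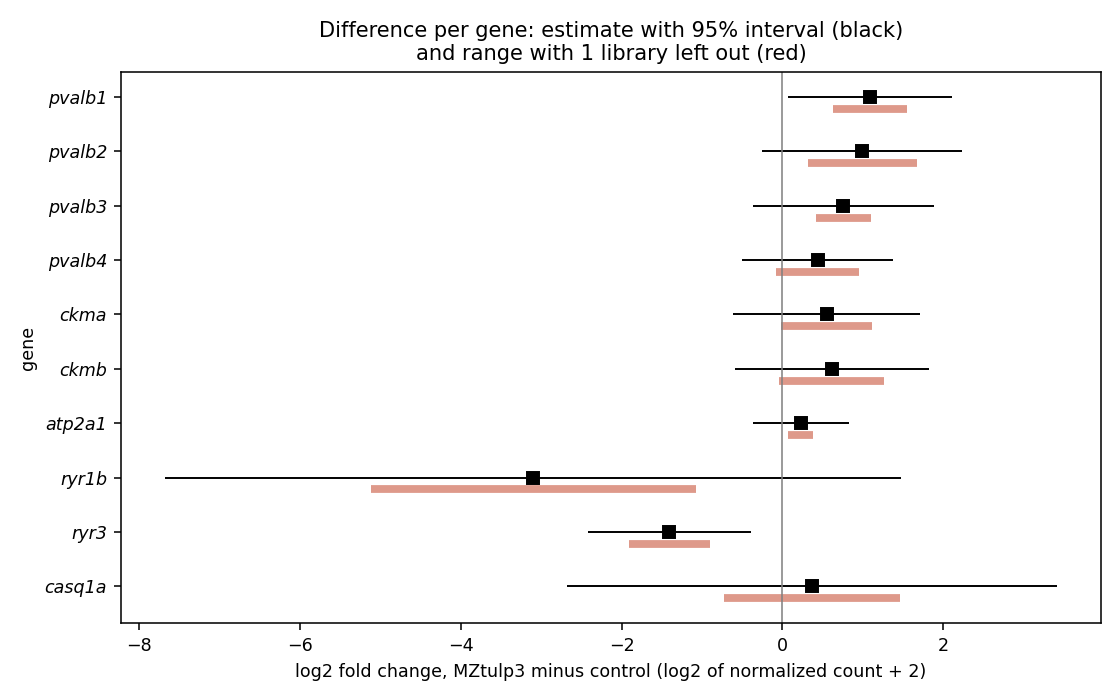
Log2 fold changes of the 10 genes, MZ*tulp3* minus control, with the 95% interval of the limma fit as a horizontal line and the square as its estimate. The red bar under each line spans the lowest to the highest estimate with 1 library left out. The intervals of *pvalb1* and *ryr3* leave out 0 before adjustment, and those of the other 8 genes include it.

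The abundant genes of the set were averaged to describe their profile over the libraries. For the 6 genes with a mean of at least 1000 normalized counts in this set (*pvalb1*, *pvalb2*, *pvalb4*, *ckma*, *ckmb* and *atp2a1*), the mean centred log2 level was 0.17 and -0.82 in the control libraries and 0.67 and -0.02 in the MZ*tulp3* libraries. In each of the 6 genes replicate 1 was above replicate 2 in both groups, and control replicate 2 was the lowest library. The order of control replicate 1 and MZ*tulp3* replicate 2 differed among them, with MZ*tulp3* replicate 2 higher for *pvalb1* and *atp2a1* and lower for the other 4. The control libraries of *atp2a1* differed by a ratio of 1.09, against 1.90 to 2.56 for the other 5 genes. The replicate numbers are names, and nothing in the labels ties the same number across groups. Among the tested genes outside the set, the 5 nearest to this profile by Euclidean distance over the 4 libraries were *tnnt2d* at a distance of 0.0717, the gene ENSDARG00000042785 at 0.0939, *tnni2a.4* at 0.0972, *bnip3lb* at 0.113 and *zic1* at 0.136. *tnni2a.4* encodes a troponin I of fast muscle, and 8 of the 50 nearest genes were in the list of 30 tested fast contractile genes, which is 0.204% of all genes tested. A likeness over 4 libraries is a description of these libraries.

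Since several fast contractile genes lay close to this mean profile, the reads of each gene were also set against the summed reads of 34 fast contractile genes in the same library. This list covers myosins, actins, troponins, tropomyosin, titin and nebulin, and the percentages are reads not divided by transcript length. Whether each of these genes is limited to fast fibres was not tested. *pvalb1* reads were 8.83% and 8.73% of the fast contractile reads in the control libraries and 13.3% in each MZ*tulp3* library. On this scale the libraries of a group were nearly level, with a mean of 8.78% ± 0.0719 (SD, n = 2) in control and 13.3% ± 0.00311 (SD, n = 2) in MZ*tulp3*, and the log2 ratio of the groups was 0.60. *pvalb2* reads were 13.8% and 10.2% among controls, compared with 17.1% and 16.5% in MZ*tulp3*, so that the groups did not overlap here although they did in normalized counts. The 4 parvalbumins together were 23.5% and 19.7% in the controls and 31.2% and 30.5% in the MZ*tulp3* libraries, a log2 ratio of 0.52. An exact two-sided permutation test gave p = 0.333 for each of these 3 ratios, which is the smallest p that 2 libraries against 2 allow.

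The creatine kinases were not separated between the groups on this scale. Their summed reads were 14.3% and 11.4% of the fast contractile reads in control embryos, against 15.1% and 12.4% in MZ*tulp3* embryos, with overlapping groups and a log2 ratio of 0.10 (exact permutation p = 0.667). *atp2a1* reads were 1.51% and 2.60% in the control libraries and 1.46% and 1.87% in MZ*tulp3*, which overlapped. *ryr3* reads were 0.213% and 0.427% among controls, compared with 0.0912% and 0.0719% in MZ*tulp3*, a log2 ratio of -1.90 with no overlap (exact permutation p = 0.333, the smallest possible). For *pvalb4* the log2 ratio to the contractile reads was -0.051, with overlapping groups. The ratio of *pvalb4* to *pvalb1* reads was 0.0848 and 0.0787 in the controls and 0.0502 and 0.0540 in the MZ*tulp3* libraries, so every mutant library was below every control (log2 ratio -0.65, exact permutation p = 0.333). The reads of *ryr3* were 14.1% and 16.4% of the *atp2a1* reads in control embryos, against 6.25% and 3.84% in MZ*tulp3* embryos, and this ratio of 2 reticulum genes had a log2 difference of -1.64 with no overlap (exact permutation p = 0.333). The ratios of *pvalb4* to *pvalb1* and of *ryr3* to *atp2a1* were not planned, and they restate the differing fold changes of their genes. The fast contractile sum was itself not constant, since *actc1b*, its most counted gene, had 126266 and 29501 normalized counts in the control libraries and 170901 and 100107 in MZ*tulp3*. The sum also holds 10 tested myosin heavy chain, titin and nebulin genes, all with negative fold changes, at a median of -1.25. The most counted of them, *myhz1.1*, had 35357 and 52493 reads in control and 11348 and 9207 in MZ*tulp3*. Fewer reads of these genes in the sum make each ratio to it higher in MZ*tulp3*. Ratios to a sum without them were not computed, so the sizes of these ratios, and the signs of the small ones, depend on the choice of sum. Without *actc1b* in the sum, an alternative chosen after seeing the data, the log2 ratio was 0.73 for *pvalb1*, 0.66 for the 4 parvalbumins, 0.23 for the creatine kinases and -1.77 for *ryr3*, and that of *pvalb4* turned to 0.082. The control libraries were then less level for *pvalb1*, at 11.9% and 9.83%, with 18.2% and 17.7% in the mutants. Each of these log2 ratios moved upward without *actc1b*, so this alternative does not show the effect of leaving out the genes with negative fold changes.

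**Figure D3:**
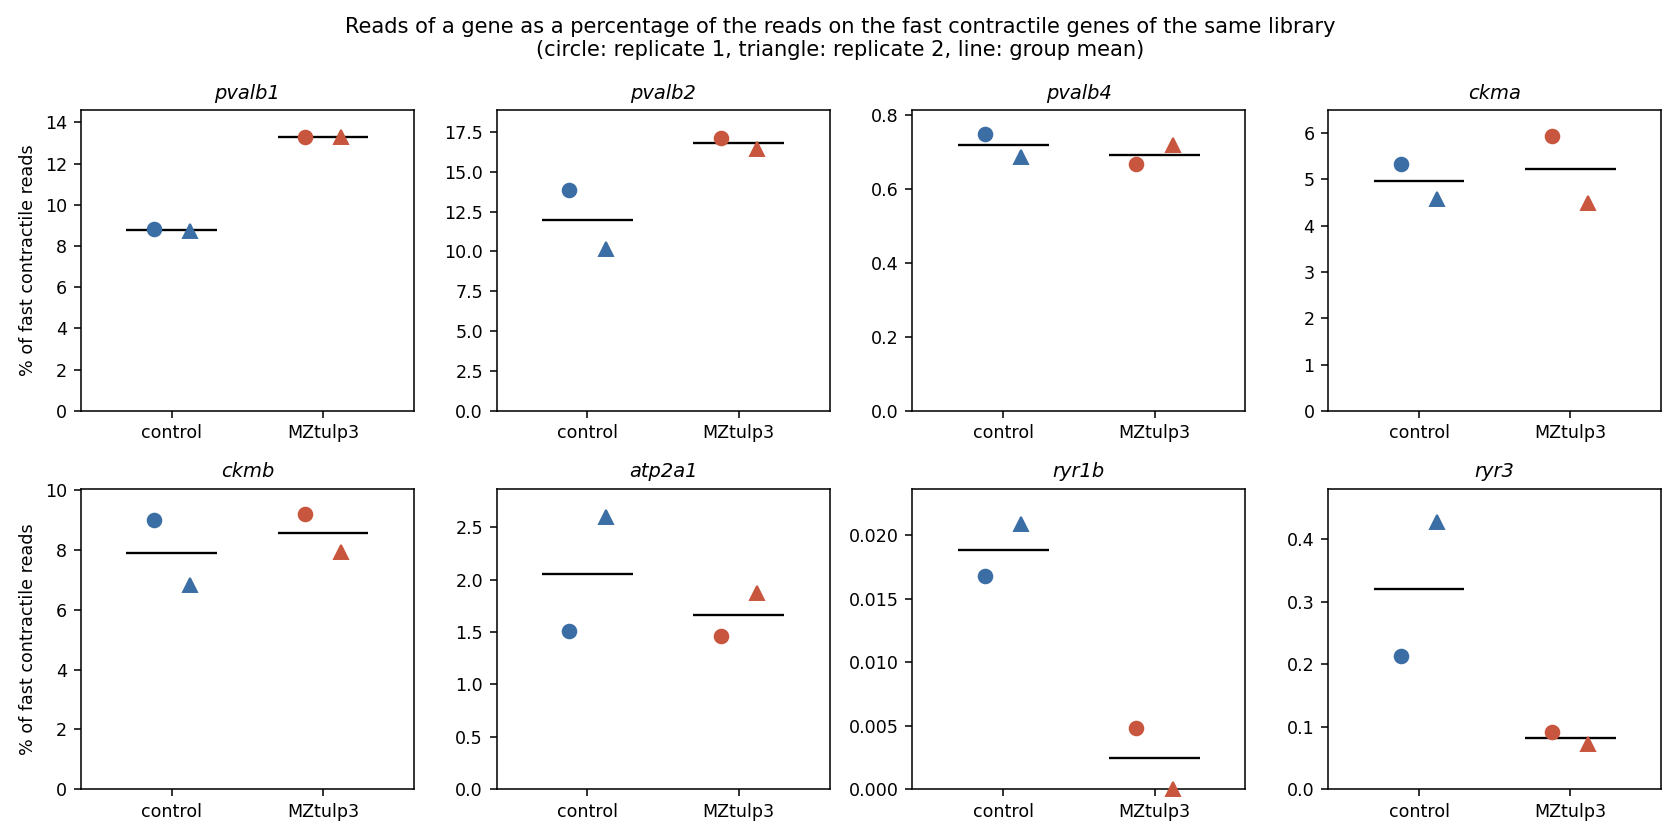
Reads of each gene as a percentage of the summed reads of the fast contractile genes in the same library, for 8 of the 10 genes, with a linear axis from 0 in each panel. Circles are replicate 1, triangles replicate 2 and bars the mean of a group. The *pvalb1* points form 2 level pairs at 8.83% and 8.73% in control and at 13.3% in MZ*tulp3*, the *ckma* and *ckmb* points overlap, and the *ryr3* points of MZ*tulp3* lie below both controls.

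The remaining parvalbumins of the table did not share 1 direction. Of 5 tested, 3 had a positive and 2 a negative fold change, and the median was 0.11. Limma and DESeq2 called none of them, with *pvalb8* alone at an unadjusted limma p under 0.05 (12.8% of all genes tested). *pvalb8* had 111 and 60.1 normalized counts among controls, compared with 350 and 369 in MZ*tulp3*. Its mutant libraries both lay above control, with a log2 fold change of 2.11 (SE 0.67) and an adjusted p of 0.379 with limma and 0.186 with DESeq2. *pvalb9*, the most counted of the 5, had 369 and 314 in the controls and 453 and 851 in the MZ*tulp3* libraries, with a log2 fold change of 0.87. In the RefSeq annotation of GRCz12tu, which is another build than that of the files and served only for gene order, *pvalb8*, *pvalb4*, *pvalb1* and *pvalb5* follow each other as neighbouring protein-coding genes, as do *pvalb9*, *pvalb3* and *pvalb2*. The log2 fold changes were 2.11, 0.44, 1.09 and -0.44 along the first run and 0.87, 0.76 and 0.99 along the second. The 5 parvalbumins outside the set were counted far less than *pvalb1* and *pvalb2*, and reads shared between related copies make their values uncertain.

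Of the 8 tested genes of the creatine system besides *ckma* and *ckmb*, 4 had a positive and 4 a negative fold change, with a median of 0.07 and 0 calls by limma or DESeq2. *ckbb*, a brain-type creatine kinase and the most counted of them, had 7565 and 9835 normalized counts in control embryos, against 6886 and 5063 in MZ*tulp3* embryos, which gave a log2 fold change of -0.55. *ckmt2a*, a mitochondrial creatine kinase of sarcomeric type, had 84.7 and 126 normalized counts in the control libraries and 17.2 and 0 in MZ*tulp3*, with both mutant libraries below control and a limma adjusted p of 0.410. *gatm*, which carries out the first step of creatine synthesis, had 1831 and 1497 among controls, compared with 2638 and 3561 in MZ*tulp3* (log2 fold change 0.89, limma adjusted p = 0.379). It was the single gene of the 8 with an unadjusted p under 0.05 (12.8% of all genes tested), and was named after its values were seen.

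Of 32 tested genes of excitation-contraction coupling outside the set, 19 had a positive and 13 a negative fold change, with a median of 0.09 and no call by limma or DESeq2. Of these 32, 5 had an unadjusted p under 0.05, against 12.8% of all genes tested. They were *jph2*, *casq2* and *pln* with higher and *stim1a* and *ryr2a* with lower values in MZ*tulp3*, named here after their values were seen. Of these, *pln* and *ryr2a* passed the filter on low values only through the group where they were higher. The count of 5 is therefore not read as a difference of the list. *jph2*, a junctophilin that ties the reticulum to the surface membrane, had 216 and 135 normalized counts in the controls and 642 and 623 in the MZ*tulp3* libraries. *casq2*, the calsequestrin of heart and slow muscle, had 304 and 180 in control embryos, against 540 and 706 in MZ*tulp3* embryos, where *casq1a* showed no such separation. *stim1a*, a calcium sensor of the reticulum, had 304 and 341 in the control libraries and 123 and 99.1 in MZ*tulp3*. *pln*, which inhibits the SERCA pump, was at 0 in both controls and at 84.7 and 13.0 normalized counts in MZ*tulp3*, so its mean was at least 20.1-fold higher against a floor of 3 reads per library, and at least 5.33-fold higher without MZ*tulp3* replicate 1. *ryr2a*, another ryanodine receptor gene, was at 18.3 and 31.0 in control and at 0 in both mutant libraries, at least 7.07-fold lower by the same floor. *fkbp1aa*, the most counted gene of the list and a small protein that binds ryanodine receptors, had 4863 and 5421 among controls, compared with 6379 and 5154 in MZ*tulp3*, which overlapped. *asph* had the widest difference among the better counted genes, with 243 and 170 in the controls and 226 and 9.44 in the MZ*tulp3* libraries, and the log2 fold change of -2.01 was 0.15 without MZ*tulp3* replicate 2.

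The contractile genes beside which these genes are expressed were split. Of 30 tested fast contractile genes, 19 had a positive and 11 a negative fold change, with a median of 0.52, close to the 0.50 of the set. Limma called none of the 30, with 4 at an unadjusted p under 0.05 (12.8% of all genes tested). DESeq2 called 3 (2.56% of all genes it tested), all lower in MZ*tulp3*. These were the fast myosin heavy chains *myhz1.1* and *myhz1.2* and the titin gene *ttn.2*. *myhz1.1* had 34038 and 34658 normalized counts in control embryos, against 12993 and 10867 in MZ*tulp3* embryos, which gave a log2 fold change of -1.53 (SE 0.27) with an adjusted p of 0.379 in limma and 1.37e-05 in DESeq2. *ttn.2* had 5723 and 15543 in the control libraries and 3643 and 3109 in MZ*tulp3* (DESeq2 adjusted p = 0.00837). *myhz1.2* had 5536 and 6594 among controls, compared with 3159 and 2146 in MZ*tulp3* (DESeq2 adjusted p = 0.0265). *myha*, another myosin heavy chain, had the largest difference by the naming rule, at -1.93 on the log2 scale, and it ranged from -3.06 to -0.80 with 1 library left out, the latter without MZ*tulp3* replicate 2.

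Of 10 tested slow contractile genes, 7 had a positive and 3 a negative fold change, with a median of 0.40 and no call by limma. An unadjusted limma p under 0.05 was found for 5 of the 10, against 12.8% of all genes tested. Higher in MZ*tulp3* were 3 of the 5, both rows of *smyhc2* and *tpm2*, and lower were 2, *actn2b* and *tnni1d*. Here *tpm2*, *actn2b* and *tnni1d* were named after their values were seen. Both rows of *smyhc2*, *actn2b* and *tnni1d* passed the filter on low values only through the group where they were higher. The count of 5 is therefore not read as a difference of slow muscle. The slow myosin *smyhc2* stands in 2 rows of the table, whose reads may be shared. The row ENSDARG00000103969 had 0 normalized counts in both controls and 55.0 and 83.8 in MZ*tulp3*, at least 28.5-fold higher against the floor of 3 reads per library (DESeq2 adjusted p = 0.0389). The row ENSDARG00000099115 had 0 in both controls and 14.9 and 100 in MZ*tulp3*, at least 23.7-fold higher (DESeq2 adjusted p = 0.0768). Without MZ*tulp3* replicate 2 these bounds were 22.6-fold and 6.11-fold. *tpm3*, the most counted slow gene, had 3328 and 2683 in the controls and 4172 and 4047 in the MZ*tulp3* libraries, a log2 fold change of 0.46, and *tnnt1* had 91.5 and 171 in control embryos, against 136 and 10.6 in MZ*tulp3* embryos. Of 12 tested myogenic factors, 8 had a positive and 4 a negative fold change, with a median of 0.17, and 0 were called by limma or DESeq2 or had an unadjusted limma p under 0.05. *myod1*, a determination factor of muscle, had 339 and 326 normalized counts in the control libraries and 546 and 596 in MZ*tulp3*, and *pax7a*, a factor of muscle progenitors and neural crest, had 39.5 and 22.4 among controls, compared with 133 and 109 in MZ*tulp3*.

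Summed markers of epidermis and neurons did not overlap between the groups, and those of heart and erythroid cells did. All 10 epidermis markers had both mutant libraries above both controls (20.0% of all genes tested). Their summed levels were 196313 to 270771 normalized counts in control and 503942 to 610235 in MZ*tulp3*. DESeq2 called 7 of them (2.56% of all genes it tested), and limma called 0. Of 10 neuron markers, 9 had a negative and 1 a positive fold change. Both mutant libraries lay below both controls for 7 of the 10 (23.3% of all genes tested), and the groups overlapped for 3. Their sums were 24580 to 35867 in control and 13573 to 15898 in MZ*tulp3* over the 10 markers. DESeq2 called 3 of the 10 and limma 0. The lowest limma adjusted p was 0.379 in both lists. The fast contractile sum was 262859 to 494078 in control and 402179 to 636851 in MZ*tulp3*, which overlapped. Of the heart markers, *myh6* and *nppb* were at 0 in every library, and the sum of the list was 297 to 746 in control and 441 to 602 in MZ*tulp3*. The erythroid sum was 5975 to 9402 in control and 5395 to 17676 in MZ*tulp3*. The part of these differences in the values of the muscle genes was not tested. The 10 genes together took 2.04% and 0.937% of the nuclear reads in the controls and 2.48% and 1.78% in the MZ*tulp3* libraries, which overlapped.

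**Figure D4:**
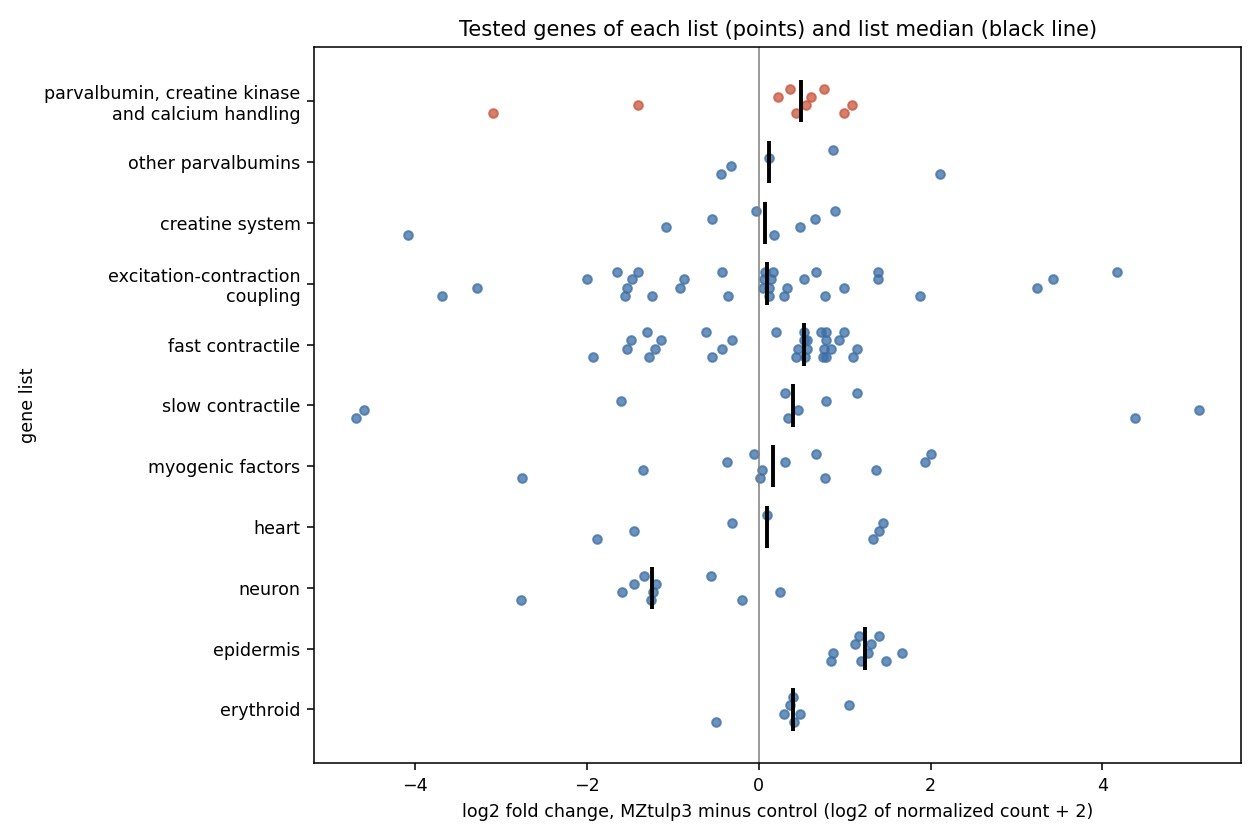
Log2 fold changes, MZ*tulp3* minus control, of the tested genes in each list. Each point is 1 gene and each vertical bar the median of its list, with a thin line at 0. The set of 10 genes has a median of 0.50 and the fast contractile list 0.52, while the epidermis markers lie at a median of 1.23 and the neuron markers at -1.24.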

How the data were processed

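Poly(A)-enriched RNA of 4 libraries was sequenced. According to the methods and processing notes, the authors trimmed reads with Trim Galore, aligned them with STAR to GRCz10, estimated counts with RSEM and analysed them with DESeq2. The per-library signal values that the authors deposited are counts divided by size factors, since 100% of them came out as whole reads within 0.001 of a read. The deposited log2 columns, the p-value columns and the further statistics of the authors' own comparison were not used.

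The 10 genes and all lists were chosen with earlier results of these data known. limma 3.58.1 with a mean trend was fitted to log2(normalized count + 2) of 14674 genes with at least 10 normalized counts in at least 2 libraries, in R 4.3.3. edgeR 4.0.16 and DESeq2 1.42.0 on recovered reads, other scalings, pseudocounts and filters, a replicate block and leaving out each library were alternatives. DESeq2 on recovered reads called 353 of 13810 genes and edgeR called 0, with 1427 at an unadjusted p under 0.05, against 1873 in limma.

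Beside the 10 genes, the text names the most counted gene of each muscle list, the gene with the largest fold change at a mean of at least 50 normalized counts, each gene called by limma or DESeq2, and the 5 nearest profiles. Of the tissue marker lists only counts and sums are given, apart from *myh6* and *nppb*, which were named because they were at 0 in every library. Genes named otherwise are marked so. *ryr1a* was named as the paralog of *ryr1b*, and *pvalb5* for its place in the gene order. Floors of 3 reads cover counting error only. Transcript lengths, coordinates and sequences of the genes were not used here, so levels are not compared per length. All 10 identifiers matched the table of gene names.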

Additional observations from a re-analysis of the deposited data

How the results depend on the processing

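No alternative called any of the 10 genes. The number of genes past the threshold over all genes was 0 in limma as reported, 353 with DESeq2 on recovered reads, 112 when at least 10 normalized counts were asked of every library, and 329 with the replicate number as a block. The replicate numbers are names, and deviations of libraries with the same number had a correlation of -0.0029 over genes, so the block result is given for completeness. It was 0 with every single library left out, with edgeR under both scalings, with the other pseudocounts, scalings and no filter.

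Directions turned for 4 genes when 1 library was left out. The log2 fold change ranged from -0.079 to 0.96 for *pvalb4*, from -0.013 to 1.12 for *ckma* and from -0.042 to 1.27 for *ckmb*, with the lowest value without control replicate 2 in each. For *casq1a* it ranged from -0.73 without control replicate 1 to 1.46 without control replicate 2, with -0.24 where MZ*tulp3* replicate 2 was left out. The log2 ratio of *pvalb4* to the fast contractile reads was 0.082 without *actc1b*. The median over the 10 genes ranged from 0.074 to 0.95 with 1 library left out, and was 0.28 after scaling to nuclear reads. No value for *ryr1b* could be had at 10 normalized counts in every library. The cause was not tested for any of these. With 8607137 nuclear reads in the shallowest library, *casq1a* and *ryr1b* rest on at most 197 reads per library.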

Other observations

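Within the fast contractile list, the direction of the difference went with the kind of protein, in a split made after the values were seen. The 7 tested myosin heavy chains, the titin genes *ttn.1* and *ttn.2* and nebulin (*neb*), which all encode very large proteins of the sarcomere, had negative log2 fold changes in 10 of 10 cases, from -1.93 to -0.42 with a median of -1.25. Of the other 20 tested genes, which encode mainly light chains, actins, troponins, tropomyosin and smaller proteins of the Z-disc and thick filament, 19 had positive fold changes, with a median of 0.74. The groups overlapped for 21 of the 30 tested genes of the list. Both mutant libraries lay below both controls for 7 and above them for 2 (23.3% and 20.0% of all genes tested). With 1 library left out, *myhb* reached 0.53 and *myhc4* 0.14. On the positive side *tnni2b.2* fell to -0.75, and *acta1b*, *actn3a*, *ldb3a*, *ldb3b* and *tnnt3b* also turned negative. Outside this list the directions were mixed. The ryanodine receptors *ryr3* and *ryr1b*, also very large proteins, had fold changes of -1.40 and -3.10. *ryr2a*, with few reads and past the filter only through its control libraries, had -3.69, and *ryr1a*, whose groups overlapped, had -0.92. *ryr2b* did not pass the filter, with 83 reads in MZ*tulp3* replicate 2 and 0 in the other 3 libraries. The 3 tested rows of slow myosin heavy chains (*smyhc1* and both of *smyhc2*) were higher in MZ*tulp3*, with *smyhc1* at 0.31, or -0.035 without control replicate 2. Both rows of *smyhc2* had 0 reads in both controls and passed the filter only through the MZ*tulp3* libraries. Their reads may be shared, so the 2 rows are not read as separate cases. Among the small parvalbumins, *pvalb1* to *pvalb4* had 0.44 to 1.09 and the other 5 had -0.44 to 2.11. *ttn.1* had 2000 and 4271 normalized counts in control embryos, against 1210 and 1200 in MZ*tulp3* embryos. Its groups did not overlap. *neb* had 1046 and 659 in the control libraries and 779 and 181 in MZ*tulp3*, where MZ*tulp3* replicate 1 lay between the controls. The relation of these differences to transcript length was not tested.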
